A study of Rattus norvegicus with 39 samples.

Results

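The genes described here are 36 zinc finger and other transcription factor genes, read as polyribosome-bound mRNA in the nucleus accumbens (NAc) of female rats. They were chosen by name: an identifier of the count table was a candidate when it could be paired with a symbol that begins with one of 20 prefixes of transcription factor families (Zfp, Znf, Zbtb, Sox, Fox, Hox, Klf, Tcf, Pax, Tbx, E2f, Irf, Stat, Mef2, Hes, Lhx, Dlx, Nkx or Pou, or that of the sine oculis homeobox genes), with 1 exception, and it was kept when it had at least 10 counts in 5 or more libraries. Of 23978 identifiers, 1966 could be paired with a symbol, 54 of these were candidates and 36 were kept. The same count minimum was passed by 1590 of the 1966 paired identifiers and by 14125 of all identifiers. A gene whose identifier could not be paired is not analysed here, so the 36 genes are not the whole set of such genes in the rat. A symbol with one of these prefixes does not show that the gene encodes a transcription factor.

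The study asked how the estrous cycle bears on the response of D1 and D2 neurons to repeated ketamine, an NMDA receptor antagonist. Heterozygous D1-Cre (Drd1a-iCre) or D2-Cre (Drd2-iCre) Long Evans females received a Cre-dependent RiboTag virus in the NAc, which puts an HA tag on a ribosomal protein in cells that carry Cre, so that the tagged ribosomes and their mRNA can be pulled down. All rats began with 1 saline injection before a test session. They then had 6 treatments, either with saline or with 10 mg/kg ketamine, in proestrus (Pro) or in diestrus (Di). The ketamine rats used for sequencing had been chosen by the study for a rise in locomotor activity. Brains were taken 4 days after the last treatment, without further drug, soon after the rats were put back in the test setting. The 39 immunoprecipitated libraries, 1 per rat, fall into 8 groups of 5 by Cre line, stage and treatment, except D2 Pro ketamine with 4. Input libraries are not used here, so the levels below are those of the pulled-down mRNA and are not set against whole tissue.

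Sequence-specific transcription factors bind short DNA motifs and recruit proteins that raise or lower transcription. The C2H2 zinc finger genes, many of which carry a KRAB domain and act as repressors, are the largest family of them in mammals. Homeobox genes of the Dlx family are needed for the birth and migration of GABA neurons of the striatum and the cortex, and they stay on in many interneurons of the adult brain.

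By family, all 20 Zfp candidates and all 4 Zbtb candidates were kept. Of 16 homeobox and POU candidates 4 were kept (Dlx1, Dlx2, Pou2f1 and Pou3f4), and of 6 T-box candidates only Tbx19. The others were both KLF genes (Klf1 and Klf3), 2 of 3 forkhead genes (Foxk1 and Foxo3), both basic helix-loop-helix genes (Hes1 and Tcf15) and Paxbp1. Paxbp1 is no transcription factor of its own but an adapter that links PAX3 and PAX7 to histone methylation, and its symbol begins with the prefix Pax. The 18 genes not kept were mainly Hoxd, Tbx, Lhx and other patterning genes, and 7 of them had 0 counts in every library. At the count minimum, Klf1 reached 10 counts in 11 libraries and was kept, while Lhx1 and Lhx5 reached it in 4 libraries each and were not.

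Promoter sequences are shown for the 4 genes with the lowest adjusted p between D2 and D1 libraries in saline. RefSeq's GRCr8 table held a promoter for 28 of the 36 genes, not including Dlx2, the neighbour of Dlx1. Each line gives the 250 bases before the annotated start, 5′ to 3′ on the gene's strand, with GC boxes (GGGCGG) and CCAAT boxes on either strand in capitals. Dlx1 lies at chr3:76763614-76763863 on the plus strand, Paxbp1 at chr11:43787543-43787792 on the minus strand, Zfp365 at chr20:20664872-20665121 on the plus strand and Zfp692 at chr10:42988696-42988945 on the plus strand.
Dlx1: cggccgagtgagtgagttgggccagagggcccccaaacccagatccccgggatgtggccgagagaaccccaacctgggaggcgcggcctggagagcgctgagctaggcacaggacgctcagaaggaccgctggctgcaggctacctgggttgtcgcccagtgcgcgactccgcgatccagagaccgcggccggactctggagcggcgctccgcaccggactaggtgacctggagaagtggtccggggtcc
Paxbp1: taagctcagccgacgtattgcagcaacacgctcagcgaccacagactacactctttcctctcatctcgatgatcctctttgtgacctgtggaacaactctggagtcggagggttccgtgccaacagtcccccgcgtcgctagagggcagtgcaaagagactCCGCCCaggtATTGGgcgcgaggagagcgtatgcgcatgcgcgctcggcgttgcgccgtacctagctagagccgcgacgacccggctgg
Zfp365: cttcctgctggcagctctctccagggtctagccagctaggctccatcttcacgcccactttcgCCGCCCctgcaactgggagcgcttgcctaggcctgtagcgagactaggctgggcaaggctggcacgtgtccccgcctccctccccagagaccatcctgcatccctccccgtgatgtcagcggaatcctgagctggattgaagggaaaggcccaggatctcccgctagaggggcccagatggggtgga
Zfp692: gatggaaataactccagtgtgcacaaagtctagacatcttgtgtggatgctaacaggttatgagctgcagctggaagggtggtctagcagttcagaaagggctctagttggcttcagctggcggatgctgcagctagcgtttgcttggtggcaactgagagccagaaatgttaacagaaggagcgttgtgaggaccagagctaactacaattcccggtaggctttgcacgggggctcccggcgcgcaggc
The 4 windows range from 53.6% GC in Zfp692 to 69.2% in Dlx1, against a median of 58.6% over the 28 promoters and of 51.2% over all 33469 promoters of the table. A GC box was found in 12 of the 28 promoters, against 30.5% of all promoters, and a CCAAT box in 13, against 34.0%. The homeodomain core TAATTA, which Dlx proteins can bind, was found in 1 of the 28 (Tbx19), against 4.86% of all promoters, and the forkhead motif TGTTTAC and the octamer ATGCAAAT in 0, against 3.21% and 1.56%. These matches describe letters in a window and no binding.

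Levels are given in CPM, a gene's counts scaled to its library's total and normalized over the 39 libraries. CPM is not scaled to transcript length, so levels are compared between groups and not between genes. Total counts ranged from 16118050 to 43224256 (D2 Pro ketamine library 22), with a median of 20494896, except for D2 Di saline library 39 at 2396517. Adora2a, the adenosine receptor gene of D2 neurons, was at 176.9 ± 22.8 CPM in D1 saline and 923.4 ± 104.1 CPM in D2 saline libraries (SD, n = 10 each). Marker genes of D1 neurons could not be paired with identifiers. Some markers of glia and vessels were called higher in D2 libraries, and both paired interneuron markers were called higher in D1 libraries. Values of these markers are given beside Zfp692, Paxbp1, the Dlx genes and Hes1. In D2 Di ketamine library 32, Adora2a was at 454.9 CPM, the lowest of the D2 libraries.

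Most of the 36 genes held nearly the same level in all 8 groups. The ratio of the highest to the lowest group mean had a median of 1.17 and was under 1.5 for 28 genes, and the SD between libraries of 1 group had a median of 0.13 on the log2 scale. The ratio was lowest for Zbtb22, from 31.9 ± 0.545 CPM in D2 Pro saline to 34.1 ± 2.92 CPM in D1 Pro ketamine. Only Klf1, Tbx19 and Hes1 had a ratio over 2, at 2.67, 2.47 and 2.19, and all 3 were near 1 CPM or below, where a few reads move the mean. All 4 Zbtb genes, zinc finger factors with a BTB domain that joins them into dimers, had group means within 1.12-fold of each other.

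**Figure D1:**
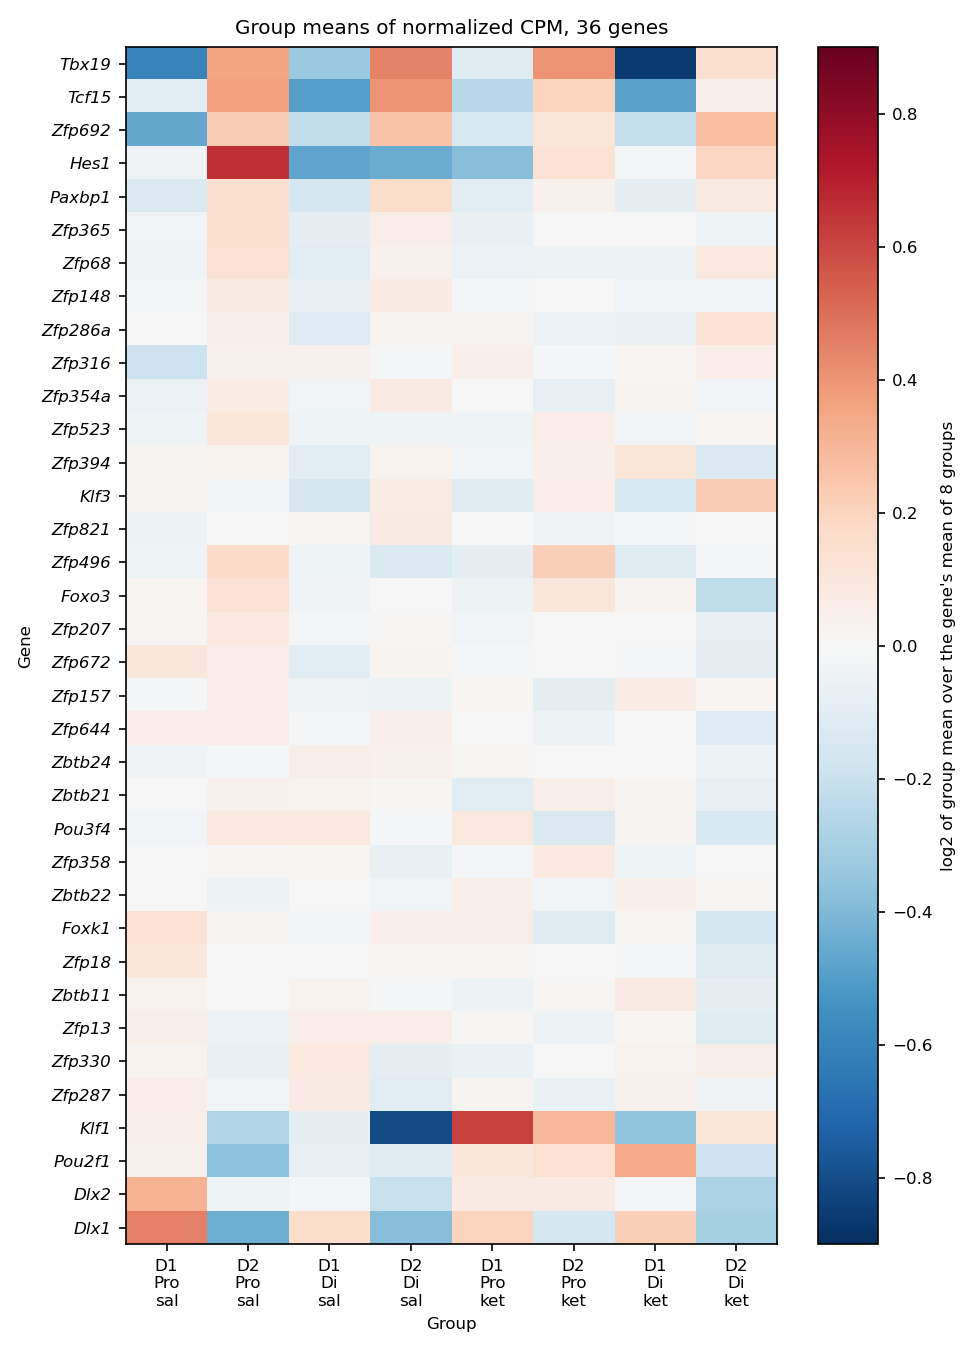
Group means of the 36 genes as the log2 of the mean CPM over the gene's mean of the 8 group means, with genes in rows, ordered by their D2 over D1 difference in saline, and groups in columns. Most rows are pale, while Tbx19, Tcf15 and Zfp692 are redder in D2 columns and Dlx1 is bluer there.

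The comparison of cell types asked which of these genes were more abundant on the ribosomes of D2 or of D1 neurons. Over all saline libraries, with stage in the model, 10 of the 35 genes tested (28.6%) differed at an adjusted p under 0.1 (edgeR's quasi-likelihood test, adjusted after Benjamini and Hochberg over all genes tested), against 28.8% of all 13689 genes. The share of these genes called was thus near that of all genes. Zfp692, Zfp365, Zfp68, Zfp148, Paxbp1, Tbx19 and Tcf15 were higher in D2 libraries, and Dlx1, Dlx2 and Zfp330 were higher in D1 libraries. These are 7 genes with a D2 bias, against 14.6% of all genes, and 3 with a D1 bias, against 14.1%. The median log2 difference was 0.05 over these genes and 0.000547 over all genes, and the median of its size was 0.07 against 0.10. Without library 39, which has the lowest depth, 4 of 36 genes were called (11.1%, against 13.9% of all genes), namely Dlx1, Paxbp1, Tcf15 and Zfp68. In these bulk libraries, fewer cells of a type and less RNA per cell cannot be told apart.

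Among the zinc finger genes, Zfp692, a zinc finger repressor of gluconeogenic genes in liver, had the largest difference. In proestrus with saline, its 5 D1 libraries were at 6.09, 7.19, 6.45, 6.59 and 6.43 CPM, and its 5 D2 libraries at 7.15, 10.6, 13.3, 10.2 and 11.3 CPM. The groups overlapped by 1 D2 library, which lay just below the highest D1 library. In diestrus with saline, D1 libraries lay between 6.99 and 9.53 CPM, and D2 libraries between 8.34 and 18.6 CPM. There 1 D2 library, number 7, stood far above the other 4, which lay between 8.34 and 9.11 CPM. Over all saline libraries the log2 difference was 0.59 ± 0.14 (SE, adjusted p = 0.00477, edgeR). In proestrus alone it was 0.57 ± 0.16 (adjusted p = 0.0713, edgeR), and it passed there in 4 of 10 fits that each left out 1 library, the lowest value being 0.38 without library 37 (adjusted p = 0.579, edgeR). In diestrus alone the fitted difference changed sign with the number of surrogate variables, so that no direction is given for it. Without library 39, Zfp692 did not pass over all saline libraries (0.35).

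The D2 saline libraries with the highest Zfp692 were also the highest in markers of glia and vessels. Library 7 (18.6 CPM of Zfp692) had a summed level of 235.8 CPM for the astrocyte and 32.4 CPM for the vascular and fibroblast markers, and library 21 (13.3 CPM) had 208.3 and 23.7 CPM. In the other D2 saline libraries these sums lay between 115.9 and 138.7 and between 7.30 and 12.9 CPM. With libraries 7 and 21 both left out, a choice made after seeing the data, 8 of 36 genes were called (22.2%, against 20.1% of all genes), and Zfp692 differed by 0.39 (adjusted p = 0.0138, edgeR). The part of these markers in the result was not tested.

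Zfp692 was also higher in D2 libraries after ketamine, at 0.32 ± 0.09 (adjusted p = 0.0155, edgeR). In diestrus with ketamine, its D1 libraries lay between 7.23 and 8.48 CPM and its D2 libraries between 9.16 and 12.7 CPM, without overlap (exact permutation p = 0.00794, the smallest that 5 against 5 libraries can give, 2-sided). Of the ketamine D2 libraries, numbers 6, 16 and 32, at 12.6, 12.7 and 11.2 CPM of Zfp692, also had high sums of astrocyte markers (171.3, 164.1 and 188.8 CPM). In proestrus with ketamine the groups overlapped, with means of 8.16 ± 0.975 CPM in 5 D1 and 9.70 ± 1.96 CPM in 4 D2 libraries. In RefSeq the spans of Zfp692 and its neighbour Zfp672 overlap, and although the libraries were stranded, the strand setting of the counting is not given in the sources used here. Zfp672 itself had a log2 difference of 0.04 in saline (adjusted p = 0.674, edgeR).

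Zfp68, Zfp148 and Zfp365 were also higher in D2 libraries in saline, by less. In proestrus, Zfp68 was at 44.2, 49.9, 44.7, 48.4 and 48.8 CPM in D1 and at 51.3, 56.5, 53.9, 51.0 and 52.1 CPM in D2 libraries. The groups did not overlap (exact permutation p = 0.00794, the smallest possible, 2-sided), and in the other 3 strata of stage and treatment they overlapped. In edgeR, Zfp68 did not pass in either stage alone in saline. Its log2 difference was 0.16 ± 0.04 in saline (adjusted p = 0.0089, edgeR, but 0.122 in 1 model of all 39 libraries) and 0.11 ± 0.04 with ketamine (adjusted p = 0.0895, edgeR). The ketamine value of Zfp68 did not pass in 9 of 13 alternatives, among them 0 or 1 surrogate variable, no filter, and libraries 22 or 32 left out (adjusted p = 0.0502 to 0.354 over the alternatives, edgeR or DESeq2). Zfp365, the gene with the most counts of the 36, had a difference of 0.16 ± 0.04 in saline (adjusted p = 0.00391, edgeR), with means of 271.9 ± 42.4 and 305.1 ± 22.3 CPM in D1 and D2 in proestrus and of 259.3 ± 17.6 and 287.2 ± 26.7 CPM in diestrus. With ketamine its difference was -0.01 ± 0.04 (adjusted p = 0.877, edgeR), and the test of the change between treatments gave -0.04 (adjusted p = 1.0, edgeR). Zfp148, which binds GC-rich promoters, differed by 0.12 ± 0.04 in saline (adjusted p = 0.0273, edgeR). Without library 39, neither Zfp365 (0.09) nor Zfp148 (0.06) passed, and in 1 model of all 39 libraries both differences were below 0. Neither passed with 10 counts required in every library, and Zfp148 did not pass without a filter or without libraries 7 and 21.

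Zfp330 was the only Zfp gene called higher in D1 libraries, by -0.11 ± 0.04 in saline (adjusted p = 0.0689, edgeR). Its groups overlapped in both stages, with means of 43.96 ± 5.21 and 41.1 ± 2.15 CPM for D1 and D2 in proestrus. The saline value did not pass in 7 of 14 alternatives, namely no filter, 10 counts in every library, a threshold of 0.05, 1 model, and without library 39, libraries 33 and 39, or libraries 7 and 21 (adjusted p = 0.0219 to 0.796 over the alternatives, edgeR or DESeq2). With ketamine the Zfp330 difference had the other sign and did not pass, at 0.05 ± 0.04 (adjusted p = 0.528, edgeR), with means of 42.6 ± 3.21 CPM in 10 D1 and 43.9 ± 2.67 CPM in 9 D2 libraries. The other 15 Zfp genes and the 4 Zbtb genes did not pass. The nearest was Zfp287, at -0.14 ± 0.06 (adjusted p = 0.104, edgeR).

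**Figure D2:**
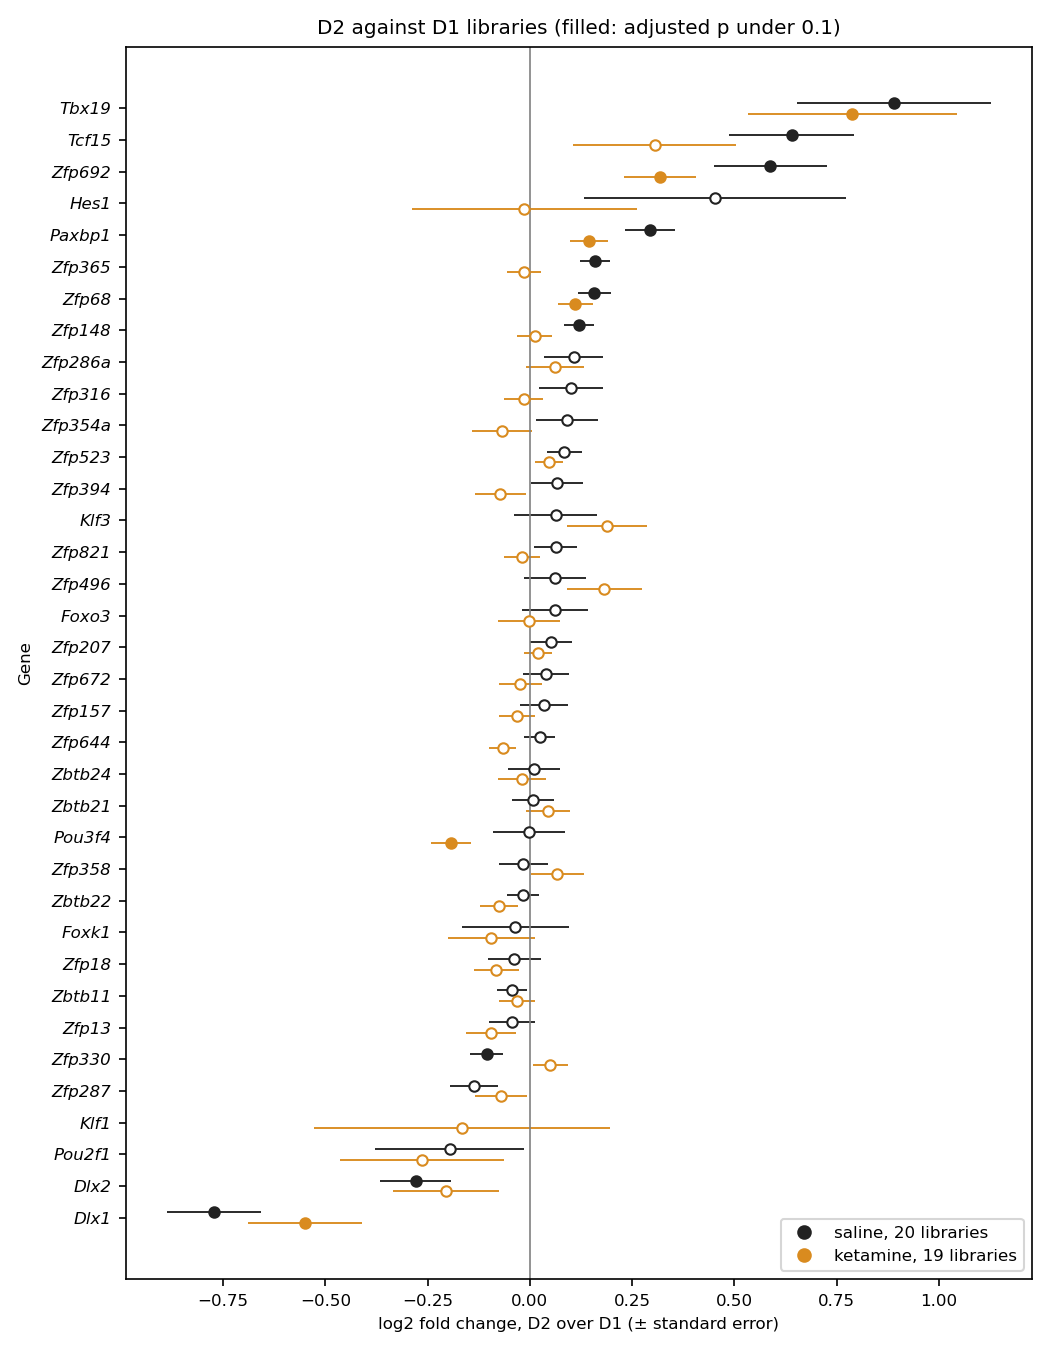
The log2 fold change of D2 over D1 libraries with its standard error for each gene, in saline (black, 20 libraries) and with ketamine (orange, 19 libraries); filled points passed an adjusted p of 0.1. Dlx1 lies farthest left in both, and Tbx19 farthest right.

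The homeobox genes Dlx1 and Dlx2 were higher in D1 libraries. For Dlx1, the D1 Pro saline libraries were at 23.2, 28.99, 49.3, 17.97 and 23.9 CPM and the D2 Pro saline libraries at 20.8, 14.7, 11.7, 11.6 and 18.3 CPM. In diestrus, D1 libraries were at 21.0, 23.1, 21.6, 24.5 and 26.7 CPM and D2 libraries at 12.8, 17.0, 12.5, 14.3 and 23.6 CPM. The groups overlapped in both stages, by single libraries, and the high D2 Di saline library was number 39, which had 57 reads of Dlx1. Over all saline libraries the log2 difference was -0.77 ± 0.11 (adjusted p = 9.11e-05, edgeR). Dlx1 passed in each stage too, at -0.57 ± 0.11 in proestrus (adjusted p = 0.0143, edgeR) and -0.62 ± 0.12 in diestrus (adjusted p = 0.0169, edgeR). In 1 model of all 39 libraries Dlx1 did not pass over all saline libraries (adjusted p = 0.111), in proestrus (0.211) or in diestrus (0.489), nor did it in proestrus with sets of 8 consecutive library numbers as a block (0.159) or in diestrus without library 23 (0.131, edgeR). With 5.41% and 4.11% of all genes called in these stages, the counts of 2 and 1 of 35 genes (5.71% and 2.86%) were near the background. By direction, the genes called were Zfp692 higher and Dlx1 lower in D2 in proestrus (2.8% and 2.6% of all genes), and Dlx1 lower in D2 in diestrus (2.38%, with 1.73% higher and 0 of these genes).

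With ketamine the Dlx1 difference was -0.55 ± 0.14 (adjusted p = 0.0134, edgeR). It did not pass without surrogate variables (-0.44, adjusted p = 0.171, edgeR) or in 1 model of all 39 libraries (-0.38, adjusted p = 0.203, edgeR). Its 10 D1 libraries lay between 15.9 and 40.3 CPM (median 20.7), and its 9 D2 libraries between 13.6 and 25.1 CPM (median 16.2). The highest D2 library was number 32, the one with the lowest Adora2a, and without it the difference was -0.58 (adjusted p = 0.0144, edgeR). The groups overlapped, and in each stage the exact permutation test did not pass (p = 0.317 in proestrus and 0.151 in diestrus, 2-sided). The test of whether the difference changed between treatments gave 0.21 ± 0.27 (adjusted p = 1.0, edgeR).

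Dlx2 showed a smaller difference, of -0.28 ± 0.09 in saline (adjusted p = 0.025, edgeR). Its means were 10.5 ± 3.79 and 8.21 ± 1.03 CPM for D1 and D2 in proestrus, and 8.39 ± 1.085 and 7.35 ± 0.342 CPM in diestrus, with overlap in both. The spread came from D1 libraries, of which 2 Pro saline libraries lay at 13.8 and 15.2 CPM and the other 3 between 7.07 and 9.23 CPM. With ketamine the difference was -0.21 ± 0.13 (adjusted p = 0.348, edgeR). The saline value of Dlx2 did not pass in 8 of 14 alternatives. These were 0 or 1 surrogate variable, DESeq2 without them, 1 model of all libraries, the block of library numbers, and without library 33, library 39 or both (-0.20 in each of these 3), with an adjusted p of 0.0133 to 0.299 over the alternatives (edgeR or DESeq2).

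Dlx1 and Dlx2 are neighbours in the genome, as pairs of Dlx genes are in vertebrates. Their levels moved together over libraries of D1 neurons, and whether this has to do with their position was not tested. Libraries of both stages and treatments were pooled for each cell type, and values were permuted freely across them. Over the 20 D1 libraries Pearson's r was 0.907 (permutation p = 1e-05, the smallest that 100000 resamples give, adjusted p = 2e-05 over 2 relations) and Spearman's rho 0.871 (permutation p = 1e-05). Without the 2 libraries farthest from the median Dlx1 level, r was 0.855. Over the 19 D2 libraries r was 0.27 (permutation p = 0.26, adjusted p = 0.26) and rho 0.184 (permutation p = 0.451), and r without the 2 farthest libraries was 0.568. Whether the relations differ between the cell types was not tested.

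**Figure D3:**
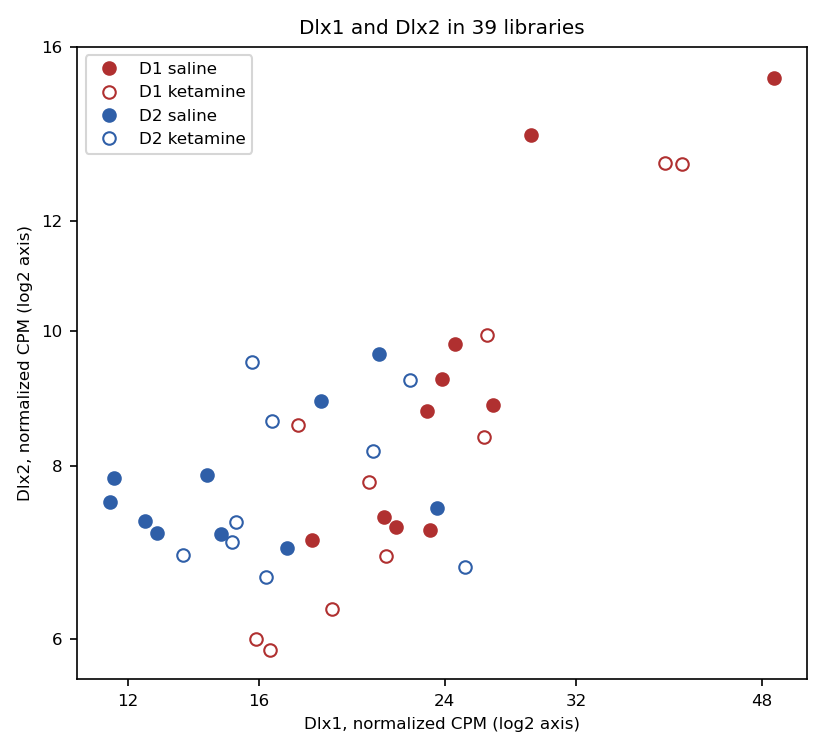
Each point is a library, with its Dlx1 level on the horizontal axis and its Dlx2 level on the vertical axis, both in CPM on log2 axes (red D1, blue D2; filled saline, open ketamine). D1 libraries lie along a line up to 49.3 CPM of Dlx1, and D2 libraries form a cloud under 25.1 CPM.

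Markers of interneurons differed in the same direction as the Dlx genes. Of 5 markers on the list, Sst and Nos1 could be paired. Their summed level lay between 271.6 and 833.2 CPM in D1 saline libraries and between 71.9 and 288.0 CPM in D2 saline libraries. Sst differed by -1.61 and Nos1 by -1.78 on the log2 scale (adjusted p = 6.22e-06 and 9.14e-07, edgeR). The D1 Pro saline library highest in both Dlx genes, number 17, also had the highest summed level of these markers. Over all D1 libraries, numbers 17, 28, 26 and 9 were the highest in Dlx1 (49.3, 40.3, 38.8 and 28.99 CPM). They were also the highest in the marker sum (833.2, 699.7, 579.5 and 565.5 CPM). The part of these markers in the Dlx1 and Dlx2 differences, and in the relation of Dlx1 to Dlx2, was not tested.

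Pou3f4, a POU factor of the developing striatum, did not pass in saline, with means of 22.04 ± 5.17 and 23.9 ± 2.96 CPM for D1 and D2 in proestrus. In 1 model of all 39 libraries, though, it was called higher in D1 over all saline libraries (-0.35, adjusted p = 0.00164, edgeR) and in diestrus saline (-0.45, adjusted p = 0.00427, edgeR). With ketamine it was higher in D1 libraries, by -0.19 ± 0.05 (adjusted p = 0.00773, edgeR), with means of 23.8 ± 2.39 and 20.5 ± 3.61 CPM in proestrus and 22.9 ± 1.47 and 20.4 ± 6.19 CPM in diestrus. All 4 of these groups overlapped with their partner. It did not pass without surrogate variables, and the test of the change between treatments gave 0.03 ± 0.11 (adjusted p = 1.0, edgeR), so no difference in response was shown. Pou2f1 was at 1.15 to 1.88 CPM over the groups, and passed in no comparison fitted with edgeR. In Pro D2 its saline libraries, at 1.15 ± 0.205 CPM, did not overlap with its ketamine libraries, at 1.63 ± 0.147 CPM (exact permutation p = 0.0159, the smallest possible, 2-sided). These values rest on 17 to 27 and 31 to 78 reads in a library. In edgeR, Pou2f1 was not among the genes with an unadjusted p under 0.05 there.

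Paxbp1, the adapter, was higher in D2 libraries. In proestrus with saline, its D1 libraries were at 27.8, 29.3, 28.0, 29.5 and 30.3 CPM and its D2 libraries at 32.7, 34.9, 41.1, 34.7 and 31.4 CPM. The groups did not overlap (exact permutation p = 0.00794, the smallest possible, 2-sided). In diestrus with saline, D1 libraries lay between 24.3 and 33.8 CPM and D2 libraries between 32.9 and 41.6 CPM. In edgeR, Paxbp1 did not pass in either stage alone in saline. The log2 difference was 0.29 ± 0.06 in saline (adjusted p = 0.0016, edgeR) and 0.14 ± 0.05 with ketamine (adjusted p = 0.0436, edgeR). The saline value passed in all 14 alternatives run. The ketamine value did not pass in 2 of 13, namely 1 model of all libraries (adjusted p = 0.118, edgeR) and the block of library numbers (adjusted p = 0.116, edgeR). Libraries 21 and 7, the highest in markers of glia among D2 saline libraries, were also the highest for Paxbp1 in their stages, at 41.1 and 41.6 CPM. Without both, Paxbp1 differed by 0.21 (adjusted p = 0.00835, edgeR).

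The low genes Tbx19 and Tcf15 were higher in D2 libraries. Tbx19, best known as the factor that turns on Pomc in the pituitary, was at 0.298 to 0.69 CPM in D1 and 0.438 to 1.34 CPM in D2 Pro saline libraries. Its log2 difference was 0.89 ± 0.24 in saline (adjusted p = 0.0102, edgeR) and 0.79 ± 0.25 with ketamine (adjusted p = 0.0418, edgeR), on at most 40 reads in a library. Tbx19 did not pass in saline without library 39 (adjusted p = 0.138, edgeR) or with ketamine under the block of library numbers (adjusted p = 0.207, edgeR). Tcf15, a helix-loop-helix factor of somites, differed by 0.64 ± 0.15 in saline (adjusted p = 0.00509, edgeR), but did not pass in 1 model of all libraries (adjusted p = 0.159, edgeR). In diestrus with saline its D1 libraries were at 0.905, 0.757, 1.104, 0.853 and 1.21 CPM and its D2 libraries at 1.93, 1.91, 1.496, 1.62 and 2.07 CPM, without overlap (exact permutation p = 0.00794, the smallest possible, 2-sided). Neither stage alone passed for Tcf15 in the edgeR fit. With ketamine Tcf15 was at 0.30 ± 0.20 (adjusted p = 0.37, edgeR).

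Hes1, the repressor that Notch signals turn on, was at 0.811 ± 0.782 and 1.31 ± 1.19 CPM in D1 and D2 Pro saline libraries, and it did not pass (0.45 ± 0.32 over all saline libraries, adjusted p = 0.344, edgeR). In saline, the markers Gja1, Mog, Flt1, Col1a1 and Col3a1 were called higher in D2 libraries, and Gfap, S100b, Pdgfra, Aif1 and Rgs5 did not pass. The 4 paired vascular and fibroblast markers of 6 (Flt1, Rgs5, Col1a1 and Col3a1) summed to 5.09 to 8.55 CPM in D1 saline and 7.30 to 32.4 CPM in D2 saline libraries, and the 3 paired astrocyte markers of 4 (Gfap, Gja1 and S100b) to 94.6 to 136.5 and 115.9 to 235.8 CPM. Their part in the values of Tcf15, Tbx19 and Hes1 was not tested.

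Over all ketamine libraries, 6 of 36 genes (16.7%) were called, against 18.0% of 13850 genes: Zfp692, Zfp68, Paxbp1 and Tbx19 higher in D2, and Dlx1 and Pou3f4 higher in D1. The share of all genes was 8.16% for a D2 bias and 9.83% for a D1 bias. Of the 6 genes, 5 were also called in saline, which is 50.0% of the calls in saline and 83.3% of those with ketamine, beside 37.7% and 60.3% of the calls of all genes. The sign was the same in 22 of 35 genes (62.9%), against 67.1% of all genes. These 2 comparisons share no library.

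**Figure D4:**
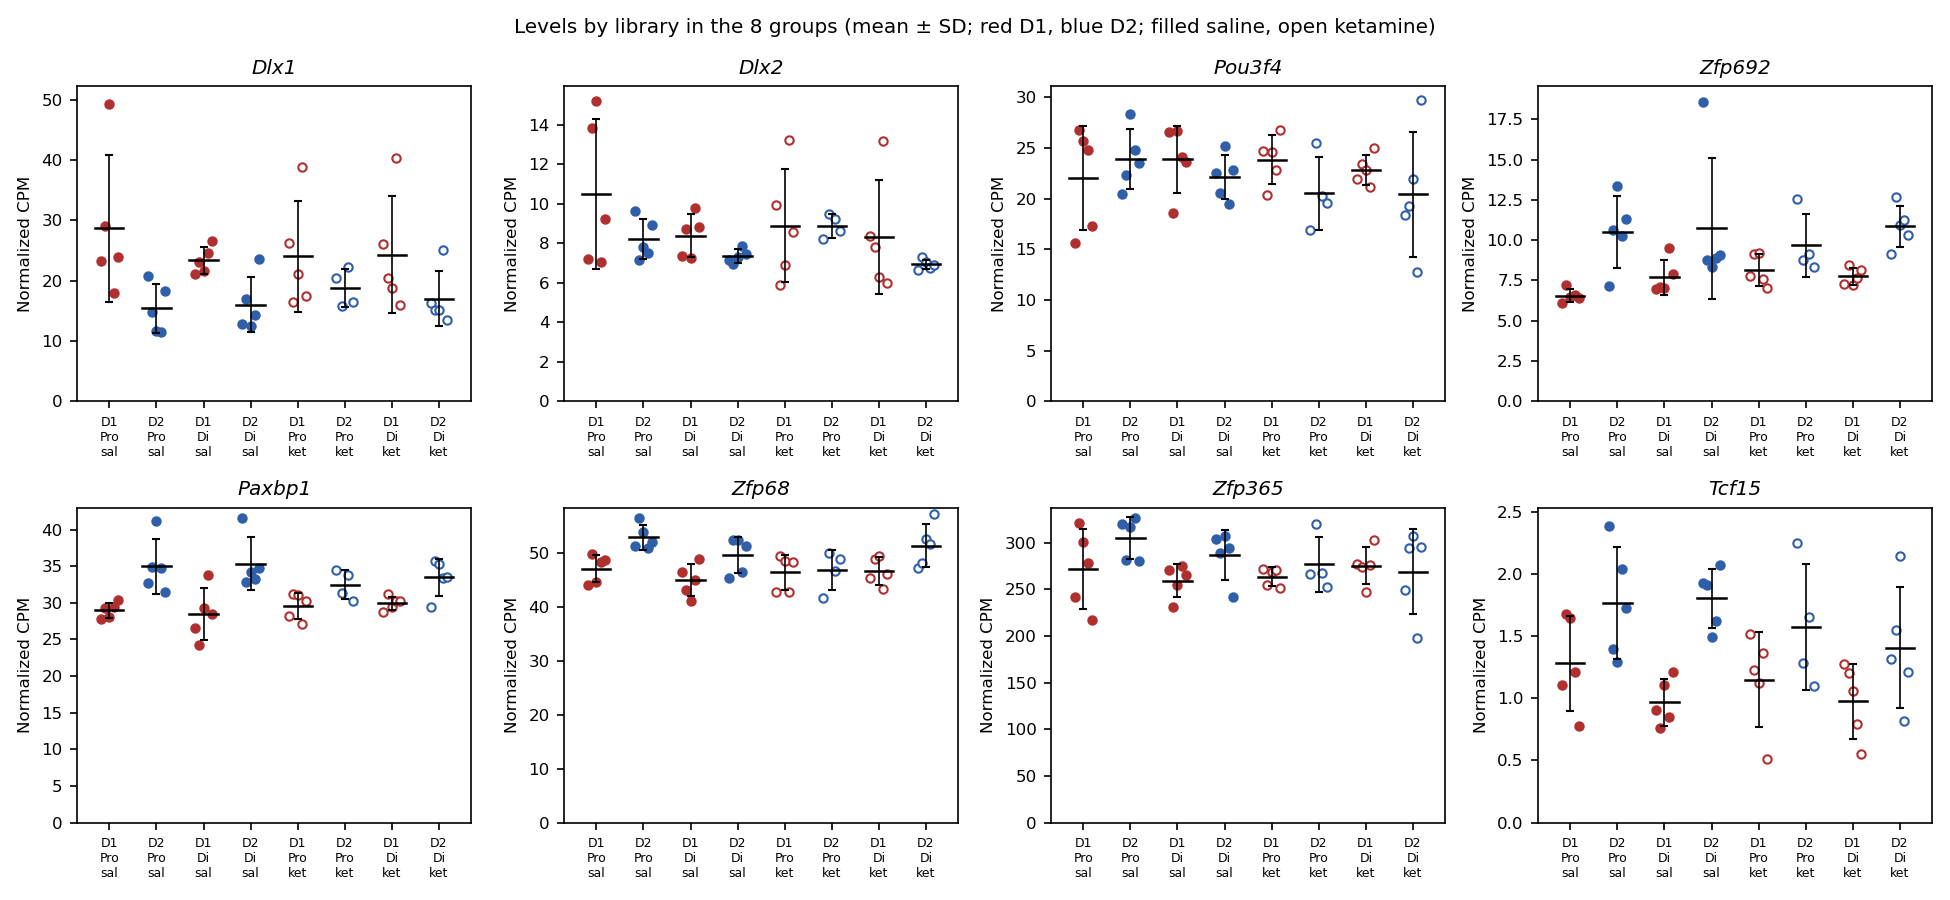
Normalized CPM of 8 genes in each library of the 8 groups, with the mean and SD in black (red D1, blue D2; filled saline, open ketamine; each axis starts at 0). Dlx1 is lower in D2 groups and Zfp692 and Paxbp1 are higher there, while single libraries stand apart, such as D2 Di saline library 7 for Zfp692 at 18.6 CPM.

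Within a stage and a treatment, few genes separated the cell types fully. The D1 and D2 groups did not overlap for Paxbp1 and Zfp68 in Pro saline, for Tcf15 in Di saline, for 0 genes in Pro ketamine, and for Zfp692 and Zfp394 in Di ketamine. All genes gave 6.17%, 5.77%, 5.5% and 4.62% in these strata, so counts of 2, 1, 0 and 2 of 36 are near the background. No gene of the 36 was without overlap in all 4 strata, against 0.835% of all genes. Zfp394 was the only 1 of these with D2 libraries below D1, at 14.4 ± 0.807 against 16.97 ± 0.642 CPM.

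Ketamine and cycle stage were then compared within each cell type. Under edgeR's quasi-likelihood test, 0 of 35 genes passed in any of the 4 ketamine comparisons (of all genes, 0.00759% passed in Pro D1, 0.0227% in Di D1 and 0.0% in both D2 comparisons) or of the 4 stage comparisons (0.0% of all genes). At an unadjusted p under 0.05 there were 2, 1, 0 and 0 genes for ketamine in Pro D1, Pro D2, Di D1 and Di D2, and 1, 1, 1 and 3 for stage in saline D1, saline D2, ketamine D1 and ketamine D2. The shares of all genes at that p were 5.8%, 3.41%, 2.66% and 2.64% for ketamine and 3.96%, 4.09%, 3.9% and 3.45% for stage. DESeq2, with and without surrogate variables, also called 0.

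The gene with the lowest unadjusted p for ketamine was Zfp316 in Pro D1, a zinc finger gene. Its saline libraries had a mean of 15.3 ± 1.06 CPM and its ketamine libraries 18.1 ± 0.785 CPM, without overlap (exact permutation p = 0.00794, 2-sided), and the log2 difference was 0.24 ± 0.07 (adjusted p = 0.751, edgeR). In the other 3 strata its ketamine groups overlapped with saline. In Pro D2, Zfp68 was at 52.97 ± 2.28 CPM with saline and 46.9 ± 3.66 CPM with ketamine, without overlap (exact permutation p = 0.0159, 2-sided), a log2 difference of -0.17 ± 0.06 (adjusted p = 0.999, edgeR). Zfp394 in Di D1 (0.20 ± 0.09) and Zfp644 in Di D2 (-0.11 ± 0.06) were the lowest of the remaining strata, both with an adjusted p of 1.0 in edgeR. Zfp644 was at 78.0 ± 2.15 CPM with saline and 69.8 ± 4.28 CPM with ketamine there, without overlap (exact permutation p = 0.00794, 2-sided), while the groups of Zfp394 overlapped. These genes were picked as the lowest of the genes tested, so exact tests on the same libraries are no separate evidence. The share of all genes without overlap is not given for the ketamine and stage comparisons. The largest fitted ketamine value was that of Hes1 in Pro D2, at -0.96 ± 0.44 (adjusted p = 0.999, edgeR).

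For stage, the lowest unadjusted p was that of Dlx2 in ketamine D2 libraries. The 5 Di libraries lay between 6.66 and 7.29 CPM and the 4 Pro libraries between 8.20 and 9.50 CPM, without overlap (exact permutation p = 0.0159, the smallest that 5 against 4 libraries can give, 2-sided), a log2 difference of 0.36 ± 0.11 (adjusted p = 0.998, edgeR). In saline D2 libraries Zfp496 had means in proestrus and diestrus of 7.61 ± 0.483 against 6.15 ± 0.48 CPM (exact permutation p = 0.00794, 2-sided) and a log2 difference of 0.32 ± 0.11 (adjusted p = 0.987, edgeR). In D1 libraries the lowest were Zfp672 in saline (0.18) and Zbtb11 with ketamine (-0.12), both with an adjusted p of 0.999 in edgeR. None of these passed over all genes, which does not show that they did not differ. Here too the genes were picked on the same libraries that the exact tests used.

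The 4 interaction tests (cell type by stage, cell type by treatment, and treatment by stage in D1 and in D2) also called 0 of these genes and 0 of all genes in edgeR, with 1, 0, 2 and 2 of these genes at an unadjusted p under 0.05, against 2.26%, 2.31%, 4.91% and 1.75% of all genes. Zfp316 in D1 (0.25 ± 0.11, adjusted p = 0.972, edgeR) and Zfp68 in D2 (-0.24 ± 0.10, adjusted p = 1.0, edgeR) were the lowest for treatment by stage.

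**Figure D5:**
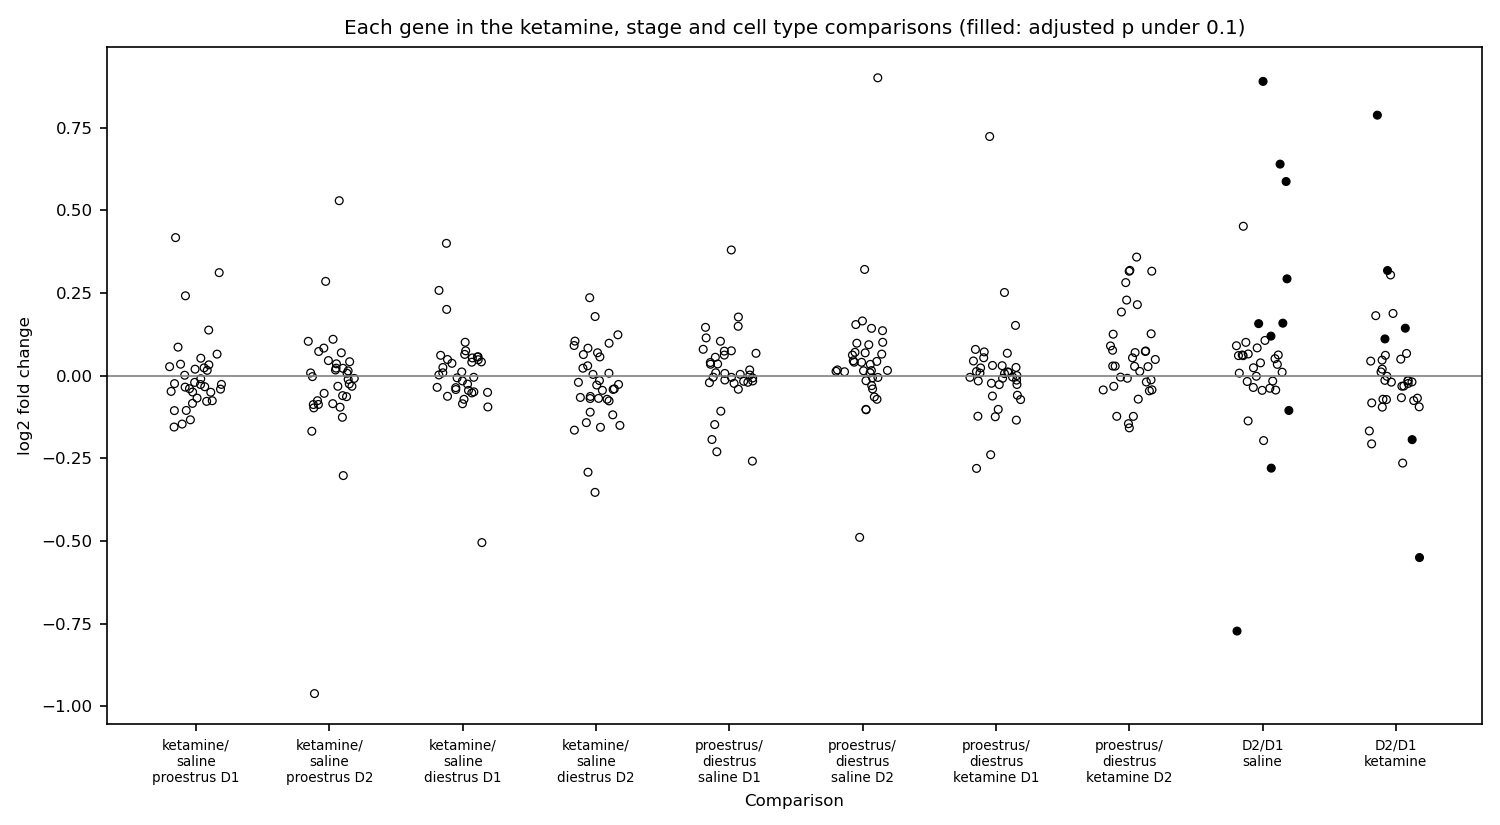
The log2 fold change of each gene in the 4 ketamine and the 4 stage comparisons and, for scale, the 2 comparisons of cell type (each point a gene; filled points passed an adjusted p of 0.1). Points fill only in the cell type comparisons, and the wide points elsewhere are low genes such as Hes1 and Tbx19.

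Other genes of transcription were described by 3 lists. In saline, 6 of 23 other sequence-specific factors tested, 5 of 16 genes of Mediator and the general machinery, and 6 of 23 chromatin genes and cofactors were called between cell types, against 28.8% of all genes. Baz1b, a chromatin remodelling subunit, differed by 0.22 ± 0.04 (adjusted p = 0.000665, edgeR), and Prmt2, an arginine methyltransferase, by -0.23 ± 0.06 (adjusted p = 0.00466, edgeR). With ketamine the counts were 4 of 23, 1 of 16 and 5 of 22, against 18.0%, and Baz1b differed by 0.10 ± 0.04 (adjusted p = 0.0954, edgeR), while Prmt2 had the other sign and did not pass (0.07 ± 0.04, adjusted p = 0.231, edgeR).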

How the data were processed

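The 39 libraries of immunoprecipitated NAc RNA were grouped by the Cre line, stage and treatment in the labels. The authors trimmed reads with fastp 0.23.4, quantified them with Salmon 1.10.2 against mRatBN7.2 and summed them per gene with tximport. The values the authors deposited are expected counts, already whole and not normalized. Libraries are 1 per rat, and litters were not modelled.

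For each comparison genes were filtered with filterByExpr (minimum count 10), normalized by TMM, and tested by edgeR 4.0.16's quasi-likelihood test with 2 surrogate variables from sva 3.50.0 (R 4.3.3), stage being in the model where both stages entered. P-values were adjusted by Benjamini-Hochberg over all genes tested, and values under 0.1 were called. SEs are the fold change over the root of the F statistic. Single groups were set against each other with exact permutation tests, 2-sided, in SciPy 1.17.1. The steps were tested on simulated data. The depth, from 2396517 to 43224256 counts, leaves genes near 1 CPM with few reads.

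Identifiers were paired with symbols through the readable parts of the study's tables, whose fold changes and p-values were not used. A marker gene on the lists is not reported here. The genes and lists were chosen with earlier results of these data known. Named with statistics were the called genes of each comparison, and otherwise the gene with the lowest unadjusted p. Hes1, Pou2f1, Zfp287, Zfp672, Baz1b and Prmt2 were given statistics outside this rule, after their values were seen. Some named results were dropped from the comparison with the alternatives once it was known which of them changed sign. All were put back before the text was written. Alternatives were the number of surrogate variables (0 or 1), DESeq2 1.42.0, its size factors in edgeR, other filters, a threshold of 0.05, 1 model of all libraries, libraries left out, and sets of 8 consecutive library numbers as a block.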

Additional observations from a re-analysis of the deposited data

Results flagged for a closer look

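Over 21 of the genes and the 8 groups, 168 sets of 4 or 5 libraries were searched for a library far from the rest, and 9 were found. Chance finds about 1 in 20, and 9 of 168 is 5.36%. In D2 Di saline, library 7 was the highest for Zfp692 (18.6 CPM, the others 8.34 to 9.11) and for Paxbp1 (41.6 CPM, the others 32.9 to 34.8), and library 39, of the lowest depth, was the lowest for Zfp365 (241.0 CPM, the others 289.0 to 308.0). In D2 Di ketamine, library 32 was the highest for Dlx1 (25.1 CPM, the others 13.6 to 16.2), and it had 454.9 CPM of Adora2a, the lowest of the D2 libraries, and 188.8 CPM of astrocyte markers, the highest of the D2 ketamine libraries. In D2 Pro ketamine, library 22, of the highest depth, was the highest of 4 for Zfp148 (69.2 CPM, the others 56.7 to 58.7). Hes1 stood out in D1 Pro saline library 17 (2.18 CPM, the others 0.259 to 0.732) and in D2 Pro saline library 5 (3.40 CPM, the others 0.521 to 1.03). Zbtb11 was highest in D2 Pro saline library 21 (84.5 CPM, the others 77.5 to 79.3), and Foxo3 in D1 Di ketamine library 36 (35.3 CPM, the others 25.7 to 28.2). Library 7 was found for 2 genes and each other library for 1.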

How the results depend on the processing

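The count of genes called between D2 and D1 over all saline libraries, 10, was 5 with at least 10 counts required in every library (23.2% of all genes called), 4 in 1 model of all libraries (13.1%), and 4 with libraries 33 and 39 both left out (11.9%), an alternative chosen after seeing the data. Leaving out library 33 or 39 gave 9 or 4 (26.7% and 13.9%). Over all ketamine libraries the count of 6 was 3 without surrogate variables (12.5%) and 3 in 1 model of all libraries (18.5%). In proestrus the count of 2 was 4 with 1 surrogate variable (10.3%), 4 by DESeq2 without surrogate variables (10.8%), 1 at a threshold of 0.05 (3.31%) and 1 in 1 model (6.19%), and 1 to 4 with a library left out (2.14% to 12.7%). In diestrus the count of 1 was 3 without surrogate variables (8.1%), 4 with 1 (9.4%), 3 by DESeq2 without them (10.1%), 3 with 10 counts in every library (10.5%) and 2 in 1 model (6.04%), and 0 to 2 with a library left out (2.04% to 6.9%, with 0 without library 23). The cause was not tested. Every count of ketamine against saline, of the stages and of the interactions stayed at 0 under the alternatives run.

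Of 925 values of 56 named results, 804 kept direction and side of the threshold, 57 no longer passed, 21 newly passed and 43 changed sign. Most of those that newly passed were of 1 stage in saline, among them Paxbp1 (5 in diestrus, 4 in proestrus), Tcf15 (4 in diestrus) and Zfp365 (3 in diestrus). Pou3f4 newly passed in 1 model, over all saline libraries (-0.35) and in diestrus saline (-0.45). Over all saline libraries, Pou3f4 (-0.00147) became 0.00723 without surrogate variables, 0.00702 with 1 and 0.00423 by DESeq2 without them, and in 1 model Zfp148 became -0.00898 and Zfp365 -0.0374. In proestrus, Pou3f4 (-0.0235) became 0.112, 0.139 and 0.114 in the same order and 0.00371 without a filter, and in 1 model Zfp148 became -0.0428 and Zfp365 -0.066. With a library left out there, Pou3f4 ran from -0.245 to 0.102, Zfp148 from -0.0534 to 0.0769 and Zfp365 from -0.0206 to 0.144. In diestrus, Zfp365 became -0.00891 in 1 model. Zfp692 (-0.0251) became 0.51 without surrogate variables, 0.515 with 1, 0.499 by DESeq2 without them, 0.137 without a filter, 0.17 with 10 counts in every library and 0.406 in 1 model, and ran from -0.0860 to 0.103 with a library left out. With ketamine, Zfp148 became -0.0305 in 1 model and ran from -0.0129 to 0.0396 without library 10, 22 or 32 (22 and 32 added after seeing the data), and Zfp365 became 0.0166 without surrogate variables, 0.0305 with 1 and 0.0165 by DESeq2 without them, and ran from -0.0342 to 0.0398 with those libraries left out. Dlx1 kept its direction throughout, from -0.80 to -0.55 over all saline libraries, but did not pass there in 1 model (adjusted p = 0.111, edgeR).

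Library numbers are not shared between groups, but they run in 5 sets of 8, each with at most 1 library of a group. The labels do not call these sets batches, and not every pair of libraries within a set deviated together from its group means (median r = 0.025 over 133 pairs, from -0.326 to 0.359, against -0.0107 over 532 pairs of different sets). Of 39 libraries, 15 correlated best with a library of their own set, a hint from the data and not the design. The count that chance would give was not computed. With the sets as a replicate block, chosen after seeing the data (without surrogate variables between 2 groups), members called were 11 over all saline libraries (29.5% of all genes), 1 in proestrus (7.02%), 3 in diestrus (10.1%) and 3 with ketamine (15.2%). Under the block Pou3f4 became 0.135 in proestrus, Zfp692 0.44 in diestrus and Zfp365 0.0293 with ketamine. Reads of overlapping genes, unpaired identifiers and the low depth of library 39 limit what these values show.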
